A study of Mus musculus with 96 samples.

Results

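The liver of DBA/2J mice fed the control diet was compared with the liver of 4 other inbred strains on the same diet, namely 129S1/SvImJ, C57BL6/J, C3H/HeJ and CBA/J. The 8 mice labelled as DBA control livers stood against 32 control mice, 8 of each other strain, and the 4 strain means were given equal weight, so 40 of the 96 arrays of the series carry the comparison. All genes were tested. Each mouse was a male, bought at 6 weeks of age, housed alone and given a weekly ration of 84 kcal for 2 weeks before the control diet began at 8 weeks. Livers were taken at 22 weeks, from 1 mouse per array with no pooling. Restricted mice of the same 5 strains, fed 25% fewer calories over the same 14 weeks, are separate animals and served as a check. The hybrid B6C3F1/J was in neither comparison, and its arrays only shared in the estimate of the spread. The labels name no transgene or induced mutation in any group.

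An inbred strain is close to identical at every locus within itself and differs from other strains at many sites. Some of those sites are known to remove or alter single gene products, as in DBA/2J, which lacks complement C5 and has a coat colour set by several recessive alleles. Liver expression in mice also carries a sex pattern driven by growth hormone pulses and a plasma protein programme that hepatocytes secrete. The values are log2 signals of 1 probe set per gene, and each difference below is DBA/2J minus the mean of the 4 other strains unless another strain is named. Since probes were designed on a reference sequence, a strain difference under a probe can change its signal; this was not tested, and other probe sets of a gene are given where they exist.

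The 40 control livers held hepatocyte markers at a mean log2 level of 14.64 to 16.06, far above the array medians. The median of the control arrays ran from 6.67 to 6.94 in DBA/2J, from 6.63 to 6.97 in 129S1/SvImJ and from 6.30 to 6.63 in the remaining strains. No control array of the comparison stood far apart in this measure. Outside the control comparison, DBA/2J restricted replicate 6 (median 8.29) and B6C3F1/J control replicate 2 (median 8.65) did, and the 8 CBA/J restricted arrays were raised (6.99 to 7.50). That DBA/2J array also had 3′ minus 5′ signals of 2.51 for Gapdh and 4.86 for beta-actin. Restricted mice of the other 4 strains had at most 0.12 and 2.02. Its hepatocyte marker level was 14.44, against at least 14.72 in those mice. RNA quality was not tested further. Muscle markers were high in 2 C3H/HeJ control mice (mean levels 9.81 and 11.75) and in 2 of 129S1/SvImJ (9.07 and 9.37), against at most 6.33 in DBA/2J. Without these 4 mice 2012 genes were called in the control comparison, against 1985 with them.

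Of 14816 genes tested, 957 (6.46%) were higher and 1028 (6.94%) lower in DBA/2J than in the mean of the others (limma, adjusted p under 0.05), 1985 or 13.4% in all. At least 2-fold differences were found in 268 of the genes called higher and 270 of those called lower. Without the arrays whose median lay above 8, namely DBA/2J restricted replicate 6 and B6C3F1/J control replicate 2, 3095 genes were called, and 3280 with only the 5 control groups fitted. Neither array enters the difference itself. Left out alone, the first gave 2322 calls and the second 2562. The split moved to 59.6% higher calls with arrays centred on their 75th percentile and to 60.8% with a covariate for array medians, from 48.2%. In 816 of the 957 genes called higher, the DBA/2J mean was the highest of the 5 strains (85.3%), as it was in 24.6% of all genes. Among the 1028 called lower it was the lowest in 920 (89.5%), against 18.6% of all genes. Both high shares follow in part from the choice of genes, which were called on these same means. They are no separate support for a trait of DBA/2J alone.

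A mean over 4 strains can differ from DBA/2J because a single strain stands apart. A stricter test therefore asked whether DBA/2J lay beyond each of the 4 strains, from the largest of the 4 limma p-values with the same sign in all. It called 26 genes higher (0.175%) and 43 lower (0.29%). Without the arrays whose median lay above 8 it called 140 genes, 70 each way, and with a covariate for array medians 117, of which 70 were higher. With every DBA/2J mouse above or below all 32 other mice, 31 genes (0.209%) were higher and 25 (0.169%) lower, of which 17 and 21 also passed the stricter test.

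**Figure D1:**
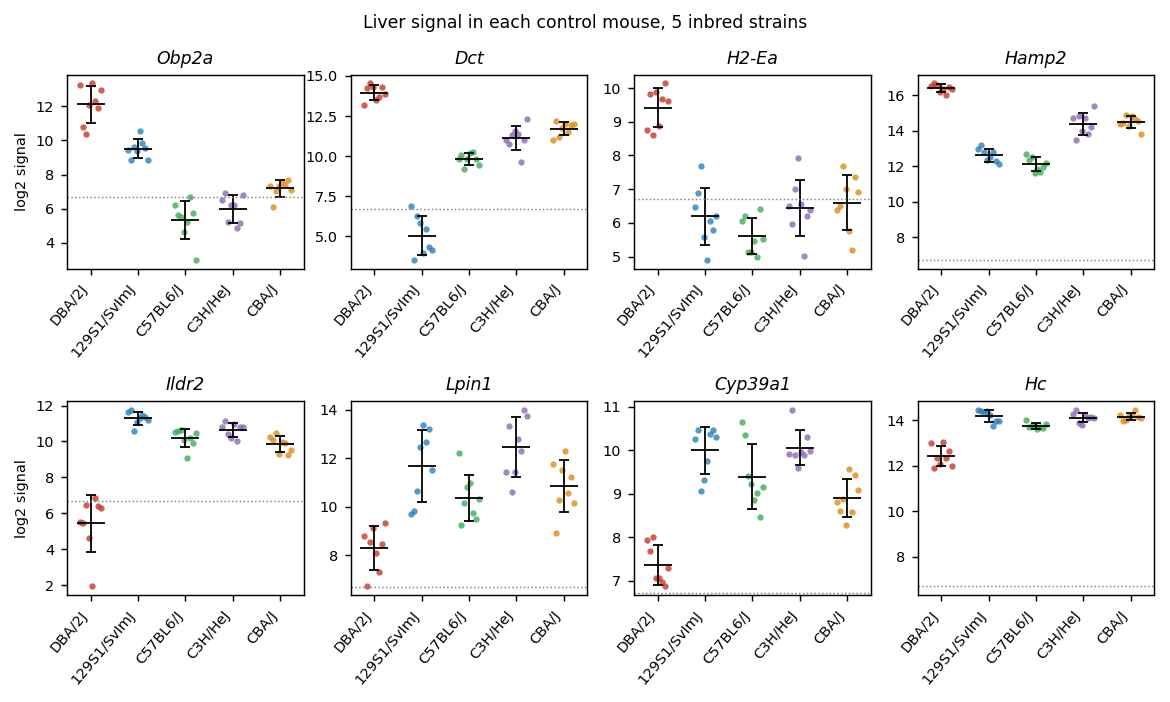
Log2 signal of 8 genes in each of the 40 control mice (points), with strain mean and SD (bars), 8 mice per strain. The dotted line is the mean array median (6.706), below which the size of a level is uncertain; DBA/2J is highest for Obp2a, Dct, H2-Ea and Hamp2 and lowest for Ildr2, Lpin1, Cyp39a1 and Hc, with overlap of single mice for Obp2a and Lpin1.

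Obp2a, a lipocalin of the odorant-binding family, was the gene raised most among those beyond every other strain. Its log2 signal ran from 10.37 to 13.34 (median 12.19) in the 8 DBA/2J mice and from 2.99 to 10.57 (median 6.86) in the 32 others. The difference was 5.11 ± 0.42 SE (adjusted p = 2e-18), made up of 2.60 against 129S1/SvImJ, 6.79 against C57BL6/J, 6.13 against C3H/HeJ and 4.93 against CBA/J. All DBA/2J mice lay above all mice of C57BL6/J, C3H/HeJ and CBA/J, while the lowest DBA/2J mouse (10.37) was below the highest of 129S1/SvImJ (10.57). On the restricted diet the difference was 3.04 (adjusted p = 1.36e-08).

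Dct, the dopachrome tautomerase of melanin synthesis, had signals from 13.21 to 14.54 (median 14.08) in the 8 DBA/2J mice and from 3.52 to 12.31 (median 10.23) in the 32 others, with no overlap. The other strains' medians were 11.84 in CBA/J, 11.16 in C3H/HeJ, 9.81 in C57BL6/J and 4.88 in 129S1/SvImJ. The 129S1/SvImJ mice thus lay lowest, with a median below the mean array median, and the difference from the mean was 4.54 ± 0.24 SE (adjusted p = 1e-28). Mrap2, which assists melanocortin receptors, lay between 7.27 and 8.00 in DBA/2J (median 7.75) against 1.10 to 6.50 elsewhere (median 3.45), a difference of 4.23 ± 0.52 SE (adjusted p = 2.98e-10). Every other strain was below the array median for Mrap2, so its fold is uncertain in size. All 8 DBA/2J mice were above their array medians, so they alone could carry Mrap2 through the signal filter. Its choice for testing thus depended on the same mice, and its p-value is no independent support. Tyrp1, whose brown allele DBA/2J is known to carry, was near background, between 4.83 and 7.13 in DBA/2J, and its difference of 1.49 was not called (adjusted p = 0.0585). It was called in 9 of 28 alternatives.

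H2-Ea, the alpha chain of the class II E molecule that presents peptides to T cells, was measured from 8.59 to 10.14 (median 9.64) in the 8 DBA/2J mice and from 4.89 to 7.91 (median 6.21) in the 32 others. The groups did not overlap, and the difference was 3.21 ± 0.35 SE (adjusted p = 2.28e-12). Its second probe set differed by 5.22 (adjusted p = 1.6e-12). Medians were 6.70 in CBA/J and 6.43 in C3H/HeJ, 6.13 in 129S1/SvImJ and 5.48 in C57BL6/J, all below the mean array median, so the size is uncertain.

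Hamp2 is a close copy of Hamp, the gene of hepcidin, the peptide that lowers iron export. The Hamp2 probe set lay between 16.00 and 16.67 in DBA/2J (median 16.43) against 11.62 to 15.38 elsewhere (median 13.34), with no overlap, a difference of 2.99 ± 0.19 SE (adjusted p = 2.28e-25). It was 3.76 against 129S1/SvImJ, 4.29 against C57BL6/J, 2.00 against C3H/HeJ and 1.92 against CBA/J. Hamp itself was -0.18 ± 0.18 SE (adjusted p = 0.549), and its other probe set 0.12 (adjusted p = 0.73). The Hamp2 probe set is of a type that can match similar transcripts, and the only other kept Hamp2 probe set, with a mean signal of 5.22, gave 0.57 (adjusted p = 0.5). The split of signal between the copies is therefore uncertain.

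The starts of the copies are shown because probe sets named for them gave such different values. Both windows are from RefSeq on GRCm38.p6, are 300 bases long across the start, and are written 5′ to 3′ on the minus strand of chromosome 7, at chr7:30943980-30944279 for Hamp and chr7:30924132-30924431 for Hamp2. Capitals mark TTCNNNGAA, a letter pattern of STAT factors, and GGCGCC, a pattern of BMP-responsive elements, both searched on both strands and not overlapping each other here. Aligned, 276 of 297 paired bases were the same (92.9%). TTCNNNGAA is in both windows and in 8.3% of 32851 promoters of this length, and GGCGCC is in the Hamp window and in 11.9% of promoters. A match describes the letters only, and the reference need not be the sequence of DBA/2J.
Hamp: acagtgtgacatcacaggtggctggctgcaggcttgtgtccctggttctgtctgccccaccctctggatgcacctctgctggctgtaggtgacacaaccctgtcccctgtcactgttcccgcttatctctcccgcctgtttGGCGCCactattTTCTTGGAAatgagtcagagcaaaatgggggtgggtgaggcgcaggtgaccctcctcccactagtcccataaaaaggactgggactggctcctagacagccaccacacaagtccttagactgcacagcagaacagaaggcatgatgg
Hamp2: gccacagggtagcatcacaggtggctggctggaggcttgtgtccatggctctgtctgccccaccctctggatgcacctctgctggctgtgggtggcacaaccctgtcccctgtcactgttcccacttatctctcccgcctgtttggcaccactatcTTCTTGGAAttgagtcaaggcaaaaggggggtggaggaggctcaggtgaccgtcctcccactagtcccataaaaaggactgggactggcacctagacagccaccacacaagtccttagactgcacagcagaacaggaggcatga

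Other genes raised beyond every strain were mixed in role. Snrnp25, a protein of the minor spliceosome, lay between 10.73 and 11.59 in DBA/2J (median 11.20) against 3.08 to 9.23 elsewhere (median 7.66), with no overlap, and differed by 3.70 ± 0.28 SE (adjusted p = 2.98e-20). Wdr86, a WD-repeat protein, had signals from 7.02 to 8.40 (median 7.81) in DBA/2J against 1.85 to 6.54 (median 3.91) and differed by 3.62 ± 0.47 SE, with no overlap and all other strain medians below the mean array median. As for Mrap2, the DBA/2J mice alone could carry Wdr86 through the signal filter. Fmo2, a flavin monooxygenase known as female-biased in mouse liver, lay between 11.62 and 13.53 in DBA/2J (median 12.47) against 8.75 to 11.15 elsewhere (median 10.13) without overlap and differed by 2.49 ± 0.28 SE. Of its 5 kept probe sets 4 were called higher. Adgrv1, a very large adhesion receptor, differed by 2.46 ± 0.16 SE, of which 0.95 was against CBA/J and 3.67 against C57BL6/J.

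Rassf4, a Ras-association protein, differed by 2.52 ± 0.34 SE, and its 2 further probe sets by 5.54 and 5.66 (both called). Capn3, a calpain of muscle, differed by 2.84 ± 0.40 SE. The muscle markers gave 0 of 10 genes called by limma and 0 at an unadjusted p under 0.05, with a mean level of 4.58 to 6.33 in DBA/2J and 4.06 to 11.75 in the others. Rnase2a, an eosinophil-associated ribonuclease, differed by 3.07 ± 0.56 SE with wide spread. Replicate 2 of DBA/2J was at 3.71, inside the range of the others, and the restricted difference of 1.17 was not called (adjusted p = 0.122). Every control mouse of the other strains lay below its array median for Rnase2a, so the fold is uncertain in size. Its passage through the signal filter leaned in part on the same DBA/2J mice, so its p-value is no independent support. Further down the list, and named after their values were seen, came the neurotrophin receptor Ntrk2 (2.41), Wfdc17 (2.07), the elastase Cela1 (1.71) and the steroid dehydrogenase Hsd3b2 (1.37).

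**Figure D2:**
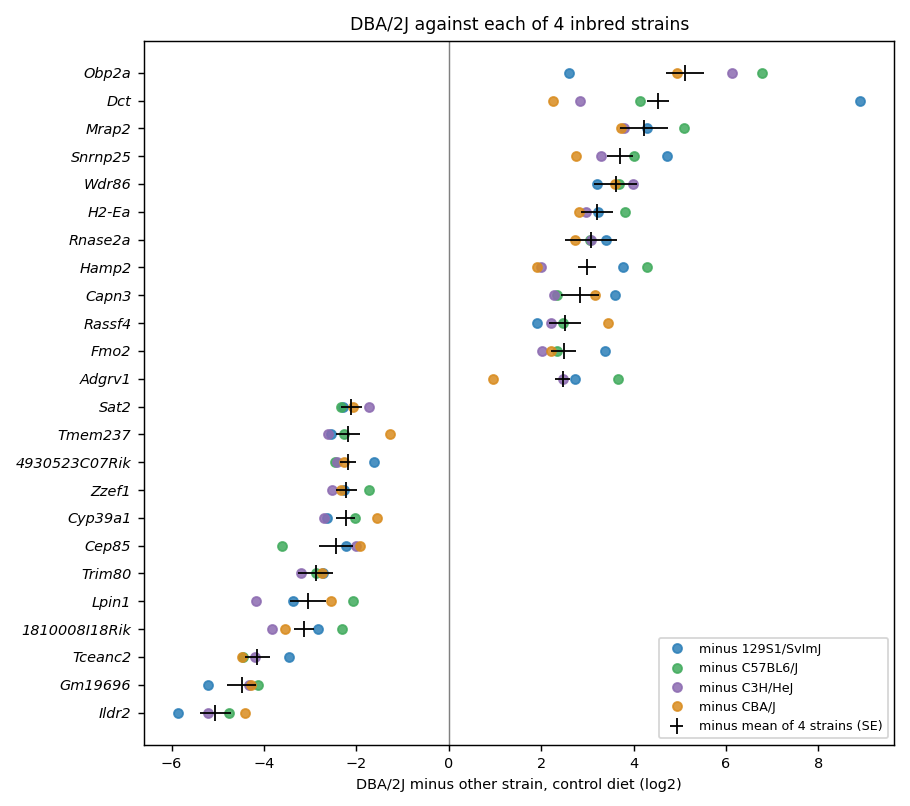
DBA/2J minus each of the 4 other strains (coloured points) and minus their mean (black bar, SE from limma) for the 12 highest and 12 lowest genes beyond every other strain, on the control diet. Every point of a gene lies on the same side of 0 as the choice of genes requires; the points of Dct span from 2.25 to 8.91, while those of Trim80 lie within -3.19 and -2.73.

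Among the genes that were lowest, Ildr2 led. It codes for a membrane protein with an immunoglobulin-like domain. Signals ran from 1.92 to 6.87 (median 5.88) in the 8 DBA/2J mice and from 9.07 to 11.77 (median 10.51) in the 32 others, with no overlap, a difference of -5.06 ± 0.33 SE (adjusted p = 4.54e-23). In DBA/2J the median lay below the array median, so the size is uncertain. The probe set can match similar transcripts, but 2 further probe sets gave -3.44 and -2.80 (both called). Gm19696, a predicted gene, lay between 2.72 and 7.36 in DBA/2J (median 4.25) against 8.07 to 10.14 elsewhere (median 9.05), with no overlap, and differed by -4.49 ± 0.32 SE. Tceanc2, a protein with a domain of the elongation factor TFIIS, lay between 2.98 and 6.38 in DBA/2J (median 3.95) against 6.96 to 9.07 elsewhere (median 8.31), also without overlap, and differed by -4.15 ± 0.27 SE, while its other probe set gave -0.87 (adjusted p = 0.152).

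Lpin1 makes diacylglycerol from phosphatidate and also acts as a coactivator of fatty acid oxidation. Its signal ran from 6.71 to 9.31 (median 8.49) in the 8 DBA/2J mice and from 8.91 to 14.00 (median 11.31) in the 32 others, so 2 of the other mice lay inside the DBA/2J range. The difference was -3.04 ± 0.39 SE (adjusted p = 3.19e-09), from -4.16 against C3H/HeJ to -2.07 against C57BL6/J, and the other probe set gave -3.38. Spread within the other strains was wide, with an SD of 1.47 in 129S1/SvImJ against 0.90 in DBA/2J (n = 8 each).

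Cyp39a1, which hydroxylates 24-hydroxycholesterol on the way to bile acids, lay between 6.86 and 8.00 in DBA/2J (median 7.18) against 8.28 to 10.93 elsewhere (median 9.57), with no overlap. It differed by -2.23 ± 0.20 SE (adjusted p = 7.51e-16), and by -1.55 from the nearest strain, CBA/J. The RIKEN transcript 1810008I18Rik lay between 7.69 and 9.13 in DBA/2J (median 8.20) against 10.04 to 13.64 elsewhere (median 11.47) and differed by -3.13 ± 0.22 SE. Both stayed well above the array median in the other strains, so the contrast is between measured levels, although DBA/2J was nearer to it for Cyp39a1.

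The remaining low genes were Trim80 (-2.88 ± 0.38 SE), the centrosomal Cep85 (-2.44 ± 0.36 SE), Zzef1 (-2.21 ± 0.22 SE), the transcript 4930523C07Rik (-2.19 ± 0.17 SE), Tmem237 of the ciliary transition zone (-2.18 ± 0.26 SE) and the acetyltransferase Sat2 (-2.11 ± 0.22 SE). Of these, 4930523C07Rik and Sat2 did not overlap with the other mice, and the others did by at least 1 mouse. For Cep85 and Zzef1 the other kept probe sets were not called (-0.18 for Cep85, -0.47 and -0.16 for Zzef1). The 24 leading genes, chosen as the most extreme in these same data, kept direction and call against the mean of the 4 strains in all 693 values computed under the alternatives. Whether each kept its call in the stricter test was not followed. Mrap2, Wdr86 and Rnase2a had no value when the signal filter asked for 40 arrays in place of 8. Of the 69 genes, 34 had at least 2 kept probe sets, 18 had another one called the same way and 0 had one called the opposite way. In 14 of the 69 the lower side lay below the mean array median.

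Several genes with alleles described in DBA/2J or other strains were on a list of 17 measured genes, of which 3 were called higher (17.6%) and 2 lower (11.8%). Over all genes 6.46% were higher and 6.94% lower, and every list count of control mice below is to be read beside these shares. List counts of restricted mice stand beside 8.72% higher and 14.9% lower over all genes. Without CBA/J and the 2 arrays of median above 8, that background was 1909 genes higher and 2253 lower of 14816. Hc codes for complement C5, which DBA/2J lacks as a protein through a known frameshift allele. Its signals ran from 11.89 to 13.02 (median 12.36) in the 8 DBA/2J mice and from 13.62 to 14.46 (median 14.08) in the 32 others, with no overlap, a difference of -1.64 ± 0.17 SE (adjusted p = 1.6e-13), with -1.77 against 129S1/SvImJ, -1.34 against C57BL6/J, -1.70 against C3H/HeJ and -1.75 against CBA/J. On the restricted diet it was -2.46. Hc was thus lower but still far above the array median.

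Aox3, an aldehyde oxidase of liver, lay between 9.52 and 11.92 in DBA/2J (median 10.21) against 9.42 to 14.03 elsewhere (median 12.99). The difference was -1.99 ± 0.19 SE (adjusted p = 2.6e-15). DBA/2J (median 10.21) and CBA/J (9.98) were both low, 129S1/SvImJ, C57BL6/J and C3H/HeJ were between 12.99 and 13.55, and DBA/2J minus CBA/J was 0.32 (adjusted p = 0.428). Alad, of haem synthesis, and its neighbour Hdhd3 were called higher (0.70 and 0.58), but the difference was mainly from C57BL6/J (1.84 and 1.45), with 0.20 and -0.17 from CBA/J. Both calls were lost without C57BL6/J in the mean (0.32 for Alad and 0.29 for Hdhd3). Ahr, the aryl hydrocarbon receptor with a low-affinity allele in DBA/2J, was -0.36 (adjusted p = 0.093) and was called in 3 alternatives. Its mean was 10.18 in DBA/2J, 10.16 in C3H/HeJ and 10.33 in CBA/J. The natural killer receptor subunit Klrd1 (-0.91, adjusted p = 0.304) and Gpnmb (0.90, adjusted p = 0.28) were not called, and every strain's median lay under the mean array median. Against C57BL6/J alone Klrd1 was -2.30 (adjusted p = 0.0205). The other genes of this list that were not called, Akap7, Aldh1b1, Glo1, Ide, Nnt, St3gal4, St7l and Wdfy1, lay between -0.24 for St3gal4 and 0.37 for Wdfy1. Wdfy1 (adjusted p = 0.0587) was called in 12 alternatives, and Glo1 and Nnt in 3 each. Against C57BL6/J alone Wdfy1 was 1.69 (adjusted p = 1.48e-13).

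The same strain difference was then measured in the restricted mice. There, 1292 genes (8.72%) were higher and 2214 (14.9%) lower in DBA/2J. All 26 genes beyond every strain on the high side had the same sign in restricted mice and 22 were called (84.6%), and all 43 on the low side had the same sign, with 40 called (93%). Over all calls, 441 of the 957 higher genes (46.1%) and 638 of the 1028 lower genes (62.1%) were called with the same sign, and 2 and 0 with the opposite. Without CBA/J and without the 2 arrays of high median (a choice made after seeing the data) these became 24 of 26, 42 of 43, 597 of 957 (62.4%) and 732 of 1028 (71.2%), and 1909 genes were higher and 2253 lower. All restricted DBA/2J mice lay outside the 32 others in 4 of the 26 and 6 of the 43. DBA/2J replicate 6 and the raised CBA/J arrays are among these mice. The share of all genes without such overlap was not counted on this diet, so the 4 and the 6 stand without a background.

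**Figure D3:**
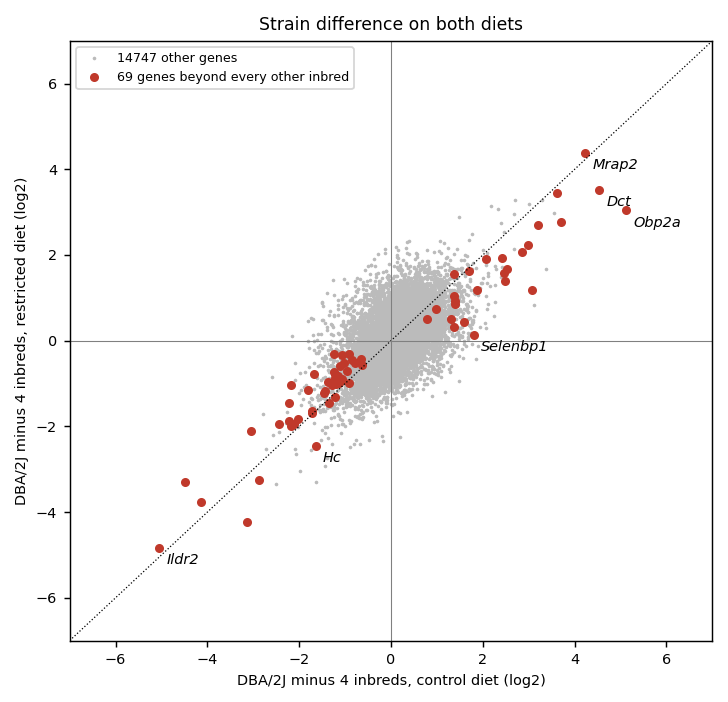
DBA/2J minus the mean of 4 inbred strains on the restricted diet against the same on the control diet (log2), for 14816 genes, with the 69 genes beyond every other strain on the control diet in red. The 2 diets use different mice; the dotted line marks equal differences, on which Ildr2 and Mrap2 nearly lie, while Selenbp1 falls to 0.13 on the restricted diet.

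Male-biased liver genes, a list of genes known to be higher in male liver, had the largest share of higher calls of the 43 lists apart from the 4 measured genes of the urinary protein list. 11 of 17 measured genes were higher and 0 lower, or 64.7% against 6.46% of all genes, with a median of 0.72 against 0.05 over all genes. Medians against the single strains were 0.93 against 129S1/SvImJ, 1.07 against C57BL6/J, 0.37 against C3H/HeJ and 0.29 against CBA/J, beside all-gene medians of -0.01, 0.06, 0.06 and 0.075 in that order. These comparisons share the DBA/2J mice. Under the alternatives 9 to 12 members were called higher. Examples were Ugt2b38 (1.67 ± 0.37 SE, adjusted p = 0.000474), which conjugates steroids and other substrates with glucuronic acid, Ugt2b1 (1.10 ± 0.18 SE, adjusted p = 2.52e-06), the peroxisomal Nudt7 (0.81 ± 0.16 SE) and the glutathione transferase Gstp1 (0.76 ± 0.13 SE). The mean of Ugt2b38 was 9.55 in DBA/2J, 9.19 in CBA/J, 8.28 in C57BL6/J, 7.71 in C3H/HeJ and 6.32 in 129S1/SvImJ. Its difference was thus largest against 129S1/SvImJ and small against CBA/J. Ugt2b1 ran from 14.97 to 16.52 in DBA/2J (median 16.07) and its medians in the other strains were 14.70, 14.64, 14.88 and 15.06. In restricted mice 4 of the 17 were called higher and 1 lower, and without CBA/J and the 2 arrays of high median 10 were higher and 0 lower.

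Of the female-biased list, 2 of 18 measured genes were higher and 4 lower, with a median of -0.16 that changed sign under some alternatives (-0.63 to 0.24). Fmo2 was among the higher genes, and Cd36, a fatty acid carrier (-0.91), and the peroxisomal transporter Abcd2 (-0.98) among the lower. The Cd36 difference was -2.14 against C57BL6/J but 0.05 against 129S1/SvImJ, and the Abcd2 difference -1.97 and -0.20. Of the growth hormone and IGF1 list, 1 of 17 measured genes was higher and 0 lower: Igfbp2, a binding protein of insulin-like growth factors, at 0.62. That share of 5.88% is near the 6.46% of all genes. Igfbp2 was -0.31 against 129S1/SvImJ (adjusted p = 0.499) and 1.29 against CBA/J, and lost its call in 4 alternatives. In the list of major urinary proteins, which are male-biased lipocalins, and of the odorant-binding lipocalin Obp2a, 3 of 4 measured genes were higher and 0 lower, namely Obp2a, Mup10 (0.77) and Mup5 (0.60). Mup10 was 0.07 against CBA/J (adjusted p = 0.914) and lost its call in 2 alternatives. Mup5 was 1.56 against C3H/HeJ but 0.22, 0.43 and 0.21 against 129S1/SvImJ, C57BL6/J and CBA/J (none called), and lost its call in 5 alternatives. The probe sets of that family can share signal between near-identical members.

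**Figure D4:**
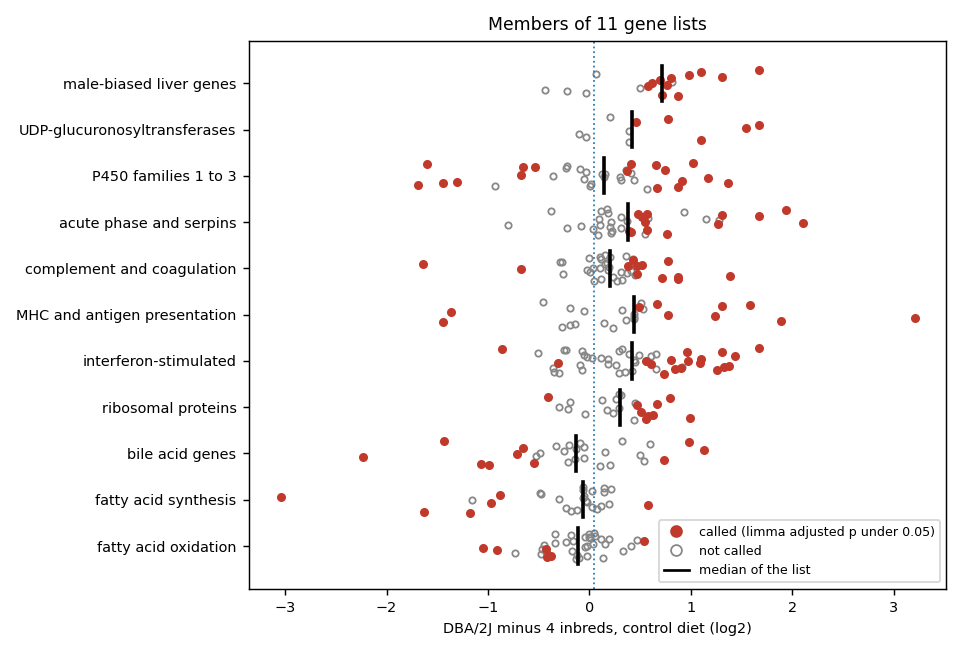
DBA/2J minus the mean of 4 inbred strains on the control diet (log2) for the measured members of 11 gene lists; filled points passed the limma test, short black lines are list medians and the dotted line is the median of all genes (0.05). The male-biased list has 11 of 17 members called, all higher, while P450 enzymes and bile acid genes have calls on both sides.

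Enzymes of drug and steroid metabolism split by family. Among UDP-glucuronosyltransferases, 5 of 10 measured genes were higher and 0 lower (50%), with a median of 0.42, and 3 to 8 were higher under the alternatives. Ugt3a1 was among them at 0.78 ± 0.15 SE, but -0.32 against C57BL6/J (adjusted p = 0.273). Among P450 enzymes of families 1 to 3, 10 of 35 measured genes were higher and 7 lower, and the median of 0.14 changed sign under some alternatives (-0.12 to 0.21). Cyp2c70, which makes the muricholic acids of the mouse, was at 1.17 ± 0.17 SE, with 1.60 and 2.97 against 129S1/SvImJ and C57BL6/J (both called) and -0.12 and 0.24 against C3H/HeJ and CBA/J (neither called). Cyp3a13 lay between 9.83 and 10.31 in DBA/2J (median 10.12) against 10.25 to 13.12 elsewhere (median 11.69), a difference of -1.60 ± 0.16 SE (adjusted p = 1.6e-13), made up of -2.47 against 129S1/SvImJ, -2.67 against C57BL6/J, -0.65 against C3H/HeJ and -0.62 against CBA/J. Cyp2c38 was lower (-1.44 ± 0.22 SE). Members of the Cyp2c, Cyp3a, Ugt2b and Gst families are similar in sequence, so the signal of single members is uncertain.

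In the other families of this kind, sulfotransferases had 2 of 11 higher (18.2%) and 1 lower (9.09%), with Sult5a1 at 0.96 and Sult1c2 at -0.81. The mean of Sult1c2 was 8.32 in DBA/2J and 8.15 in 129S1/SvImJ. Carboxylesterases and arylacetamide deacetylase had 4 of 11 higher (36.4%) and 0 lower, with Aadac, the deacetylase, at 0.77. Oxidases and dehydrogenases had 5 of 34 higher (14.7%), led by Fmo2, and 4 lower (11.8%), led by Aox3. Glutathione transferases had 3 of 20 on each side, with Mgst3 at 0.96 (-0.41 against CBA/J, adjusted p = 0.218; its call was lost in 1 alternative) and Gsto1 at -0.65 ± 0.09 SE (adjusted p = 3.96e-08). Of the fatty acid hydroxylases of P450 family 4, 0 of 10 were called by limma, 2 were higher at an unadjusted p under 0.05, and up to 2 were called higher under the alternatives.

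Transporters of the hepatocyte membrane had 3 of 34 higher (8.82%, near the 6.46% of all genes) and 6 lower (17.6%, against 6.94%). Slc22a7, an organic anion transporter, was 1.66 ± 0.17 SE (adjusted p = 2.34e-13), and Slc3a1, a heavy chain of cystine and basic amino acid transport, was beyond every strain at 1.37 ± 0.16 SE. Slco2b1, an uptake transporter, was -0.80, but the mean of its probe sets gave 0.07.

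Of the acute phase and serpin genes, 13 of 36 measured genes were higher and 0 lower (36.1%), with a median of 0.38, and 6 to 17 were higher under the alternatives. Besides the serpins described below these included serum amyloid P, Apcs (0.76 ± 0.16 SE), and the metallothioneins Mt2 and Mt1, which bind metals inside cells. Against 129S1/SvImJ, C57BL6/J, C3H/HeJ and CBA/J in that order, 10, 20, 6 and 7 members of this list were higher. In restricted mice 13 were higher and 7 lower, and 15 and 1 without CBA/J and the 2 arrays of high median. Of complement and coagulation genes, 10 of 39 measured genes were higher and 2 lower. The list medians were 0.07 against 129S1/SvImJ, 0.49 against C57BL6/J, 0.22 against C3H/HeJ and 0.21 against CBA/J. Of its members 18 were higher against C57BL6/J, and 7, 6 and 6 against the others in that order. In restricted mice 4 were higher and 8 lower, with a median of -0.13, and 20 and 5 without CBA/J and the 2 arrays of high median. C9, the pore-forming last component of complement, ran from 15.38 to 15.98 (median 15.61) in the 8 DBA/2J mice and from 13.29 to 14.94 (median 14.34) in the 32 others with no overlap, a difference of 1.38 ± 0.15 SE (adjusted p = 2.39e-12). C8b was 0.87 ± 0.16 SE (adjusted p = 3.1e-05), also without overlap, but did not pass the test against every strain (adjusted p = 0.16). C6, C8a and C8g were named after the values of the list were seen, and of these C6 and C8a were called higher (0.87 and 0.72). C8g was 0.23 (adjusted p = 0.286). The complement list count was the least steady of these, from 5 to 24 genes higher under the alternatives. Hepatocyte markers moved with these lists: 3 of 10 measured genes were higher and 0 lower, with a mean level of 15.29 to 15.82 in DBA/2J and 14.64 to 16.06 in the other strains, and 0 to 6 were higher under the alternatives. Their part in the lists was not tested.

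Mt2 and Mt1 code for small proteins that bind zinc and copper and are induced by metals and glucocorticoids. Mt2 ran from 11.56 to 14.26 (median 13.97) in the 8 DBA/2J mice and from 9.24 to 13.85 (median 11.23) in the 32 others, a difference of 2.11 ± 0.33 SE (adjusted p = 6.36e-07), from 3.57 against C57BL6/J to 1.32 against 129S1/SvImJ. Mt1, named after its values were seen, was 1.27 ± 0.27 SE (adjusted p = 0.000351), on a probe set that can match both. On the restricted diet Mt2 was 0.86 (adjusted p = 0.0447) and Mt1 0.49 (adjusted p = 0.181). Their starts are shown because the neighbours moved together and are known for metal response elements. The windows are RefSeq's on GRCm38.p6, on the plus strand of chromosome 8, at chr8:94178839-94179138 for Mt1 and chr8:94172368-94172667 for Mt2. Capitals mark TGCACNC or TGCGCNC, the letters of the metal response element, on both strands. Mt1 holds 3 matches, and 1.97% of 32851 promoters hold as many or more. Mt2 holds 4, and 0.517% hold as many or more, while 25.7% hold at least 1. The other Mt1 probe set gave 1.60 (adjusted p = 0.031).
Mt1: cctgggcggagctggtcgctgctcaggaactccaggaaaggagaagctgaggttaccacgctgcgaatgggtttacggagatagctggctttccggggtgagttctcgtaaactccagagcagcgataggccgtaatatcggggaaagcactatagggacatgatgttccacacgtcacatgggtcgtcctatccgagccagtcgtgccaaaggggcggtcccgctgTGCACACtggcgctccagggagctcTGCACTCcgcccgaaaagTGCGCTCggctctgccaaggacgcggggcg
Mt2: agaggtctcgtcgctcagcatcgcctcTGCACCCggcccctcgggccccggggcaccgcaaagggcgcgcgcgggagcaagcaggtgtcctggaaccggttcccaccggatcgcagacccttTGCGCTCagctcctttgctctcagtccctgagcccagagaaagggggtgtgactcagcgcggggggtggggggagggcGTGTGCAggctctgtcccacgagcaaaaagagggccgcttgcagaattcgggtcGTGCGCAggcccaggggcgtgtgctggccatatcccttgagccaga

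Interferon-stimulated and antigen presentation genes gave more higher than lower calls. Of 47 interferon-stimulated genes, 16 were higher (34.0%) and 2 lower, with 12 to 20 higher under the alternatives. The list medians were 1.05 against 129S1/SvImJ, -0.16 against C57BL6/J, 0.28 against C3H/HeJ and 0.38 against CBA/J, with the highest against 129S1/SvImJ and a negative one against C57BL6/J. Irf7, a transcription factor of the interferon response, was 1.10 ± 0.15 SE, 2.13 against 129S1/SvImJ and 0.47 against C57BL6/J (adjusted p = 0.0894). Ifi27 lay between 13.28 and 13.71 in DBA/2J (median 13.53) against 10.65 to 13.14 elsewhere (median 12.26), a difference of 1.32 ± 0.18 SE (adjusted p = 6.6e-09) with no overlap, though not beyond every strain by the stricter test (adjusted p = 0.188). In restricted mice 11 of the 47 were higher and 2 lower, and 11 and 5 without CBA/J and the 2 arrays of high median.

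Of the MHC and antigen presentation genes, 8 of 25 measured genes were higher and 2 lower, with a median of 0.44 and 6 to 10 higher under the alternatives. The medians were 0.19 against 129S1/SvImJ, -0.26 against C57BL6/J, 0.59 against C3H/HeJ and 0.59 against CBA/J. In restricted mice 4 members were higher and 5 lower, with a median of -0.04. Psmb8, a catalytic subunit of the immunoproteasome that cuts peptides for class I molecules, was beyond every strain at 1.31 ± 0.16 SE (adjusted p = 1.55e-10), and so was Psmb9 of the same complex (1.59), which was named after its values were seen. The secreted class I molecule H2-Q10 was lower: it ran from 13.64 to 14.20 (median 13.86) in the 8 DBA/2J mice and from 14.60 to 15.79 (median 15.23) in the 32 others, a difference of -1.36 ± 0.14 SE (adjusted p = 1.69e-13) with no overlap. H2-D1 was called higher at 1.89, but its 8 probe sets disagreed, with 6 higher and 1 lower (from -4.62 to 6.81), and against 129S1/SvImJ and C57BL6/J the chosen probe set gave 0.23 and -0.29. Class I genes differ in sequence between strains and between copies, so these values are uncertain.

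Kupffer cell and macrophage markers moved alongside. Of 14, 4 were higher and 0 lower, with 2 to 8 higher under the alternatives. Cd163, a scavenger receptor of haemoglobin named after its values were seen, was 1.35 ± 0.20 SE (adjusted p = 2.39e-07). The mean level of the list ran from 8.95 to 10.07 in DBA/2J and from 8.26 to 10.47 in the other strains. Its medians were 0.76 against 129S1/SvImJ, -0.25 against C57BL6/J, 0.49 against C3H/HeJ and 0.88 against CBA/J, negative against C57BL6/J alone. In 2 of the 14 the mean lay below the array median. The part of these cells in the interferon and MHC values was not tested, and in whole liver more cells of a type and more RNA per cell cannot be told apart. Of the markers of other cells, endothelial genes had 1 of 13 higher and 3 lower, stellate cells 3 of 13 higher, bile duct cells 1 of 7 lower, lymphocytes 1 of 11 higher, red cells 1 of 5 higher, adipocytes 1 of 6 lower, pancreas 1 of 5 higher (Cela1) and dividing cells 1 of 11 each way. Over all genes 6.46% were higher and 6.94% lower, so single calls in such short lists say little about a cell type. Neutrophil markers had 0 of 7 called by limma and 1 higher at an unadjusted p under 0.05, with a median of 0.49 and a mean level of 5.59 to 6.80 in DBA/2J against 5.10 to 6.80 elsewhere.

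Of the bile acid list, 3 of 28 measured genes were higher and 7 lower (25.0% lower against 6.94% of all genes), and 6 to 10 were lower under the alternatives. Beside Cyp39a1, the uptake transporter Slco1a4 was lower: it ran from 9.09 to 11.74 (median 10.46) in the 8 DBA/2J mice and from 10.58 to 12.86 (median 12.08) in the 32 others, a difference of -1.43 ± 0.19 SE (adjusted p = 2.9e-09). Amacr, a racemase of bile acid side chains, was called higher (0.73), and was 2.36 against 129S1/SvImJ and between 0.04 and 0.30 against the others. The list median of -0.13 changed sign under some alternatives (-0.23 to 0.04). In restricted mice 2 bile acid genes were higher and 12 lower, and all 7 that were lower on the control diet were among the latter. Without CBA/J and the 2 arrays of high median 4 were higher and 9 lower.

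Of the genes of fatty acid and triglyceride synthesis, 1 of 27 measured genes was higher and 5 lower, and 3 to 7 were lower under the alternatives. Lpin1 led, followed by the acetyl-CoA carboxylases, which make malonyl-CoA. Acaca was -1.18 ± 0.24 SE (adjusted p = 0.000206) and Acacb -1.63 ± 0.44 SE (adjusted p = 0.00604, lost in 2 alternatives). Acaca was -1.89 and -2.10 against C3H/HeJ and CBA/J (both called) and -0.59 and -0.14 against 129S1/SvImJ and C57BL6/J (neither called). Of fatty acid oxidation genes, 1 of 38 measured genes was higher and 5 lower, with medians of -0.56 against 129S1/SvImJ, -0.02 against C57BL6/J, 0.02 against C3H/HeJ and 0.08 against CBA/J. Crat, a carnitine acyltransferase, was -1.05 ± 0.22 SE, and Fabp1, the abundant fatty acid carrier of hepatocytes, 0.54, with -0.08 against 129S1/SvImJ. The mean of Crat was 9.33 in DBA/2J and 9.51 in CBA/J, so these 2 strains were close.

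Of the sterol synthesis list, 2 of 21 measured genes were higher (9.52%) and 1 lower (4.76%), near the 6.46% and 6.94% of all genes. Sc5d, a desaturase of late cholesterol synthesis, was -1.35 ± 0.19 SE (adjusted p = 5.11e-08), and Insig1, which restrains sterol synthesis, 0.73. Of the lipoprotein list, 6 of 30 measured genes were higher (20%) and 4 lower (13.3%). Pltp, the phospholipid transfer protein, was -1.47 ± 0.23 SE (adjusted p = 5.87e-07), but 0.11 against 129S1/SvImJ (not called). Apom was -0.61 and Apoc4 0.58. The mean of Apom was 12.93 in DBA/2J and 13.01 in C57BL6/J, and that of Apoc4 was 15.81 in DBA/2J and 15.68 in 129S1/SvImJ. Of the glucose list, 0 of 31 measured genes were higher and 3 lower, a share of 9.68% near the 6.94% of all genes, and 1 to 10 were lower under the alternatives. The lower genes were Tkt of the pentose phosphate pathway (-0.98 ± 0.15 SE), the glucose carrier Slc2a2 (-0.54) and Pgd (-0.61), the last lost in 8 alternatives. The mean of Slc2a2 was 13.8 in DBA/2J and 13.91 in C57BL6/J.

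Of amino acid and urea cycle genes, 6 of 35 measured genes were higher and 2 lower. Glud1, glutamate dehydrogenase, lay between 14.96 and 15.54 in DBA/2J (median 15.33) against 14.35 to 14.91 elsewhere (median 14.62) with no overlap and differed by 0.66 ± 0.13 SE. Kmo, of tryptophan breakdown, was 0.79, and Amdhd1, of histidine breakdown, -0.79. The mean of Kmo was 13.25 in DBA/2J, 13.02 in CBA/J and 12.9 in C57BL6/J. Of one-carbon genes, 1 of 22 measured genes was higher (4.55%) and 2 lower (9.09%), near the 6.46% and 6.94% of all genes. Choline dehydrogenase, Chdh, was -0.96 ± 0.16 SE (adjusted p = 3.78e-06). Bhmt, which uses the betaine that Chdh provides, was called higher at 0.39, but it was -0.05 with quantile normalization. Of haem and iron genes, 3 of 27 measured genes were higher (11.1%) and 2 lower (7.41%), led by Hamp2, with Urod of haem synthesis at -0.55. Of NRF2 targets and antioxidant enzymes, 1 of 30 measured genes was higher (3.33%) and 4 lower (13.3%). Gpx1 was 0.48, Ugdh -0.52 and the efflux pump Abcc4 -2.09, near background. The mean of Gpx1 was 16.24 in DBA/2J and 16.33 in 129S1/SvImJ. That of Ugdh was 11.57 in DBA/2J and 11.6 in CBA/J. Of clock genes, 1 of 18 measured genes was higher (5.56%) and 2 lower (11.1%), namely Rora (0.50), Hlf (-0.56) and Dbp (-0.74). The mean of Hlf was 10.22 in DBA/2J and 10.46 in CBA/J, and that of Dbp was 11.87 in DBA/2J and 12.04 in C57BL6/J. The hour of tissue collection was not stated in the labels.

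Of cytosolic ribosomal proteins, 8 of 22 measured genes were higher and 1 lower, with a median of 0.30 and 4 to 14 higher under the alternatives. Rpl19 ran from 14.75 to 15.48 (median 15.16) in the 8 DBA/2J mice and from 14.13 to 15.07 (median 14.53) in the 32 others, a difference of 0.58 ± 0.12 SE (adjusted p = 0.00031). All 8 higher ribosomal genes were also called higher in restricted mice. Against single strains on the control diet, 12 ribosomal genes were higher against C57BL6/J. Against 129S1/SvImJ, C3H/HeJ and CBA/J these were 3, 6 and 2. Of oxidative phosphorylation subunits, 7 of 32 measured genes were higher and 0 lower, with Sdhb of complex II at 0.66 ± 0.14 SE and a list median of 0.13 that changed sign under some alternatives (-0.08 to 0.27). Of heat shock and endoplasmic reticulum genes, 6 of 37 measured genes were higher (16.2%) and 2 lower (5.41%), with the chaperone partner Sdf2l1 at 0.85, Dnajc3 at 0.38 and Selenos at -0.39. Under the alternatives 2 to 13 oxidative phosphorylation genes and 2 to 15 of the last list were higher. Of the oxidative phosphorylation genes, 8 were higher against C57BL6/J, and 1, 3 and 1 against 129S1/SvImJ, C3H/HeJ and CBA/J. Of the last list, 13 were higher against 129S1/SvImJ, and 1, 4 and 5 against C57BL6/J, C3H/HeJ and CBA/J.

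Some differences sat next to each other in the genome. In the order of 14783 tested genes with a position, 3 runs of at least 3 neighbours were called in 1 direction with a difference of at least 1 on the log2 scale, and 19 pairs. The first run held Snrnp25, Rhbdf1, an inactive rhomboid protease, and Mpg, a DNA repair glycosylase, all beyond every strain. Rhbdf1 was 1.40 ± 0.18 SE and ran from 8.32 to 10.90 (median 9.39) in DBA/2J against 7.07 to 8.74 (median 8.20). Mpg was 1.38 ± 0.12 SE and did not overlap, running from 9.98 to 10.58 (median 10.42) against 8.65 to 9.55 (median 8.96), though its 2 other probe sets gave 0.09 and 0.46 (neither called). Nprl3, which lies next to them and was named after its values were seen, was 0.28 (adjusted p = 0.279). The differences of Mpg against the 4 strains were 1.18 against 129S1/SvImJ, 1.48 against C57BL6/J, 1.43 against C3H/HeJ and 1.42 against CBA/J, all called.

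The second run held the serine protease inhibitors Serpina11, Serpina9 and Serpina12. Serpina11 ran from 13.83 to 14.34 (median 13.98) in DBA/2J against 10.60 to 13.63 (median 12.42), with no overlap, and differed by 1.67 ± 0.26 SE (adjusted p = 4.32e-07), from 2.95 against C57BL6/J to 0.55 against CBA/J. Serpina9 was 1.94 ± 0.54 SE, with a mean of 7.65 in DBA/2J and 7.11 in C3H/HeJ, the nearest strain. Serpina12, vaspin, was 1.31 ± 0.32 SE, a value that came from 129S1/SvImJ (4.92), with 0.44, 0.08 and -0.20 against the rest, and it was 0.11 without 129S1/SvImJ in the mean. The third run held Slc25a27, Cyp39a1 and Rcan2. Slc25a27 was -1.42, but its other probe set was 1.80 (adjusted p = 0.0244), and Rcan2 was -1.36 with -0.04 against CBA/J. Among the pairs were Obp2a and Bmyc, Mt2 and Mt1, and Ifi27l2a and Ifi27.

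The strain difference itself changed with the diet in 45 genes (0.304%), 10 upward and 35 downward (limma interaction). The count moved with single arrays: it was 300 without B6C3F1/J control replicate 2, 19 without DBA/2J restricted replicate 6 and 13 without DBA/2J control replicate 5. It was 14 with the strain CBA/J out of the mean and 25 without the 4 mice of high muscle markers. Selenbp1, a selenium-binding protein with methanethiol oxidase activity, had the smallest p. On the control diet it ran from 15.06 to 15.93 (median 15.44) in the 8 DBA/2J mice and from 12.94 to 14.53 (median 13.70) in the 32 others, with no overlap, a difference of 1.80 ± 0.17 SE (adjusted p = 4.1e-15), while its other probe set gave 0.77 (called). On the restricted diet the difference was 0.13 (adjusted p = 0.611), and single mice overlapped. Medians were 14.61, 14.29, 14.88 and 15.18 in 129S1/SvImJ, C57BL6/J, C3H/HeJ and CBA/J against 13.58, 13.29, 14.03 and 13.86 on the control diet, while in DBA/2J it was 15.11 against 15.44. The change of -1.67 (adjusted p = 6.29e-06) was -1.24 (adjusted p = 5.6e-09) without CBA/J and the 2 arrays of high median.

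**Figure D5:**
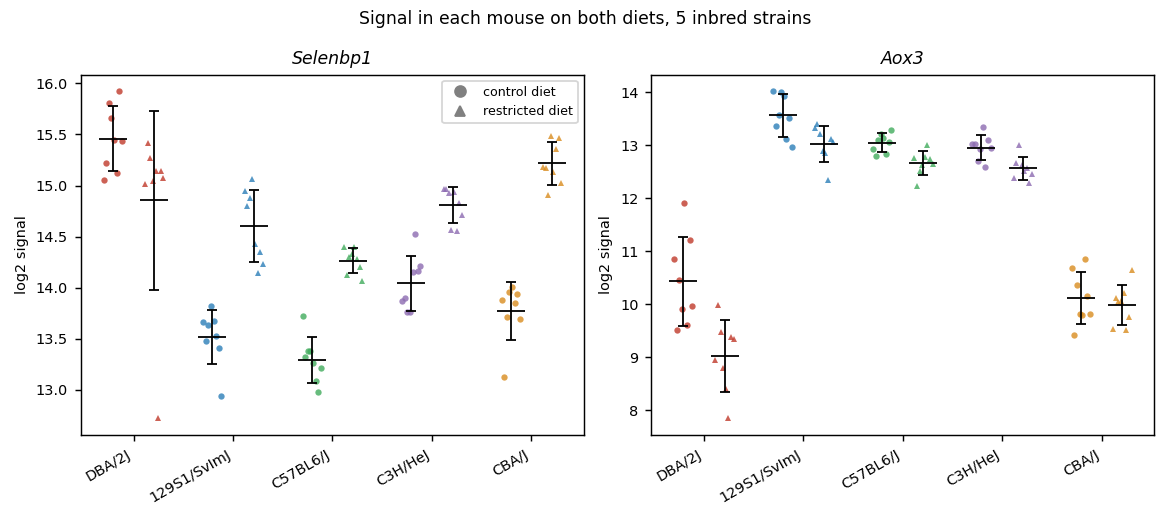
Log2 signal of Selenbp1 and Aox3 in each mouse of the 5 inbred strains on the control diet (circles) and the restricted diet (triangles), with mean and SD, 8 mice per group. The control DBA/2J mice are above all other control mice for Selenbp1, from 15.06 to 15.93, and the low restricted DBA/2J point is replicate 6; for Aox3, DBA/2J and CBA/J are low on both diets.

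The other genes of smallest p in that test were Gsap, Nol10, Fastk, Prpf19 and Snx25. Nol10, a nucleolar protein, and Fastk, a kinase-like mitochondrial RNA-binding protein, were 0.19 and 0.04 on the control diet (neither called) and -2.24 and -1.75 on the restricted diet. Every strain's control median of Nol10 lay below the mean array median (6.48 in DBA/2J), so the size of its change is uncertain. Gsap, known for its link to gamma-secretase, was 0.64 on control and -0.89 on restricted diet. Prpf19, a splicing factor, was -0.92 and 0.06, and Snx25 0.55 and -0.46. Without CBA/J and the 2 arrays of high median, the change held its call in Gsap (-1.55), Nol10 (-2.46) and Fastk (-1.52) and not in Prpf19 (0.48, adjusted p = 0.157) or Snx25 (-0.53, adjusted p = 0.159).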

How the data were processed

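Liver RNA of single mice was measured on Affymetrix mouse genome arrays. The authors deposited MAS5 signals, per the submitters' processing notes, an intensity on a linear scale. The trimmed mean of the deposited values (2% left out at each end) was about 500 on every array. The labels state no version or settings for MAS5. Signals were turned into log2 values. Of 45101 probe sets, those at or above the array median on at least 8 of 96 arrays were kept (32999), and the kept probe set with the highest mean represented each of 14816 genes. The precision is limited by the number of arrays.

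Limma 3.58.1 in R 4.3.3 fitted 1 mean for each of 12 groups (lmFit, eBayes with trend and robust), with Benjamini-Hochberg adjustment over all genes. SEs are limma's. Members and 43 gene lists (31 of processes, 12 of cell markers) were chosen with earlier results of these data known. Named genes were the 12 highest and 12 lowest beyond every strain, up to 3 called members of each process list, genes with described alleles, 6 genes of the diet test and runs of neighbours; others are marked in the text. The scripts were tested on simulated data. Alternatives are given in the closing section.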

Additional observations from a re-analysis of the deposited data

Results flagged for a closer look

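A gap between the highest or lowest mouse and its nearest neighbour above the 95% limit of Dixon's test for 8 values was looked for in 135 groups of control mice, for the 24 leading genes and 3 array measures. It was found in 13, and chance gives about 1 in 20. In DBA/2J the outlying mice were replicate 2 for Rnase2a (3.71, nearest 6.84) and Capn3 (9.54, nearest 8.77), replicate 5 for Ildr2 (1.92, nearest 4.64) and replicate 1 for Tceanc2 (6.38, nearest 4.53). In the other strains they were CBA/J replicate 2 for Obp2a (6.13) and replicate 1 for Capn3 (1.39), C57BL6/J replicate 1 for Snrnp25 (4.76) and replicate 5 for Ildr2 (9.07), 129S1/SvImJ replicate 7 for Trim80 (6.10), and C3H/HeJ replicate 6 for 1810008I18Rik (13.64) and 4930523C07Rik (9.29). C3H/HeJ replicate 8 stood apart in the 3′ minus 5′ signal of Gapdh (0.251, nearest -0.337) and of beta-actin (1.56, nearest 1.03).

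The DBA/2J difference was not the same on the 2 diets, by the limma interaction test, for 8 genes named in the text. The change was -1.67 for Selenbp1 (adjusted p = 6.29e-06), -1.52 for Gsap (0.00625), -2.43 for Nol10 (0.00625), -1.79 for Fastk (0.0102), 0.97 for Prpf19 (0.0102), -1.01 for Snx25 (0.0102), -1.91 for Serpina12 (0.0431) and -1.05 for Aox3 (0.0481). Nol10 lay near background in the control mice of every strain. For Aox3 the DBA/2J difference was -1.99 on the control and -3.04 on the restricted diet. Without CBA/J and the 2 arrays of high median, the change was -1.69 for Serpina12 (adjusted p = 0.0186) and -0.80 for Aox3 (adjusted p = 0.0929).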

How the results depend on the processing

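The 24 leading genes kept direction and call against the mean of the 4 strains in all 693 values computed for them under the alternatives. Their calls beyond every strain were not followed gene by gene. Of the values of all named genes, 3457 kept direction and side of the threshold, 97 lost the call, 30 gained it and 3 reversed: Bhmt was -0.054 with quantile normalization, and Slco2b1 was 0.073 and Slc25a27 0.189 as means of their probe sets. The control comparison gave 1985 calls, and 3425 with array weights, 3280 with only the groups compared, 3095 without the 2 arrays of median above 8 and 1252 at 1.5-fold or more. Genes beyond every strain numbered 69, and 263, 144 and 140 in the first 3 of those, 117 with a covariate for array medians, and 150, 164, 110 and 107 without 129S1/SvImJ, C57BL6/J, C3H/HeJ or CBA/J. The restricted comparison gave 2271 at 1.5-fold or more, from 3506. Against single strains, array weights gave 3486 (129S1/SvImJ), 3518 (C57BL6/J), 4058 (C3H/HeJ) and 3664 (CBA/J), only the groups compared 3261 (C57BL6/J), 3640 (C3H/HeJ) and 3079 (CBA/J), leaving out the 2 arrays 3432 (C3H/HeJ) and 2888 (CBA/J), and quantile normalization 1443 (C3H/HeJ). The 45 genes of the diet test became 94 (quantile), 6 (75th percentile), 18 (no filter), 15 (mean of probe sets), 80 (every probe set), 173 (only groups compared), 163 (covariate), 100 (without the 2 arrays), 121, 122 and 14 (without C57BL6/J, C3H/HeJ or CBA/J), 73 (without CBA/J and the 2 arrays) and 25 (without the 4 control mice of high muscle markers). The cause was not tested. The median of all genes moved from 0.05 to 0.11 with 75th percentile centring.

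Leaving out 1 DBA/2J array, or B6C3F1/J control replicate 2, gave 1440 to 2562 calls in the control comparison, 59 to 99 beyond every strain, 2578 to 4142 in the restricted comparison, 13 to 300 in the diet test, and 1434 to 2238 (129S1/SvImJ), 1696 to 2539 (C57BL6/J), 1734 to 2868 (C3H/HeJ) and 1464 to 2356 (CBA/J) against single strains. With the replicate number as a block, 2032 genes were called, 1960 of them shared, and 73 lay beyond every strain, 68 of them shared. Same-numbered mice correlated from -0.0939 to 0.279. Of the 8 DBA/2J control mice, the best match was the same number for 3 in 129S1/SvImJ, 2 in C57BL6/J, 1 in C3H/HeJ and 2 in CBA/J. These values do not settle whether the numbers pair the samples. The arrays of the other inbred strains were not left out singly, and without the 4 mice of high muscle markers the control comparison gave 2012 calls, and 67 genes lay beyond every strain. Leaving out those 4 mice, either array of high median alone, or CBA/J with both, was chosen after seeing the data. Array number limits the precision, and 14 of the 69 genes have a side below the mean array median.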
